A study of Caenorhabditis elegans with 91 samples.

Results

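The genes described are the msp, ssp and spe genes of Caenorhabditis elegans, chosen by symbol alone: every row whose name is msp, ssp or spe followed by a hyphen and a number. The mRNA tables held 68 of them among 30199 genes, of which 35 were msp, 12 ssp and 21 spe. The small RNA tables held 64 among 21965 genes, namely 35 msp, 12 ssp and 17 spe, since spe-5, spe-44, spe-46 and spe-47 were named only in the mRNA tables. The msp and ssp genes are named for sperm proteins, while the spe genes were named for mutants with defective sperm and encode unrelated proteins. Whether they behave alike in these libraries was therefore the first thing to describe.

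Nematode sperm crawl, and the major sperm protein (MSP) encoded by the msp genes forms the filaments that drive this movement and, when released, signals oocytes to mature. In hermaphrodites the gonad makes sperm late in larval life and then switches to oocytes, so the adult gonad holds stored sperm rather than cells transcribing sperm genes in bulk. Many spermatogenesis mRNAs are targets of endogenous small RNAs bound by the Argonautes ALG-3 and ALG-4, whose production needs the ERI complex around Dicer. RDE-4, which binds double-stranded RNA, is a partner of Dicer.

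The study asked what RDE-4 made in neurons does to small RNAs and to later generations. The reference was the rde-4(ne299) mutant (strain BFF 12). pigSi3 animals (BFF 16) carried in this mutant a single integrated transgene, Psng-1::rde-4:SL2:yfp with a cb-unc-119(+) marker, which expresses rde-4 from the neuronal sng-1 promoter, and pigSi3 F3 animals were F3 rde-4(-) descendants of pigSi3 heterozygotes. pigEx9 (BFF 14) and pigEx10 (BFF 15) were extrachromosomal arrays with rde-4 under Psng-1 and Prgef-1, marked by Pmyo-3::Mcherry and Punc-122::gfp. Their carriers (P0) and array-free F1 and F3 mutant descendants were sequenced. N2 Bristol was the wild type for whole animals. For gonads there was also sid-1(qt9); rde-4(ne299) (BFF 13), mutant also in the channel that imports double-stranded RNA into cells, and the same double mutant with pigSi3 (BFF 33). The gonad groups all carry rde-4(ne299), so no gonad group is wild type at rde-4. Isolated neurons came from strains carrying otIs356[rab-3p(prom1)::2xNLS::TagRFP] that were otherwise wild type (BFF 30), rde-4(ne299) (BFF 31) or rde-4(ne299) with pigSi3 (BFF 32). All animals were adults on day 1 grown on OP-50 bacteria at 20 °C, except N2 and rde-4 whole animals also grown at 25 °C.

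The series comprises 91 libraries, of which 64 hold small RNAs and 27 mRNA. Gene counts per library ran from 2746062 to 36765116 in gonad mRNA and from 5972135 to 15765852 in neuron mRNA. For small RNA they ran from 1841973 to 49953667 in gonads, from 735328 to 2530023 in neurons and from 1792 to 31077625 in whole animals. The library with 1792 counts, pigEx9 F1 replicate 3, was left out, so pigEx9 F1 has 2 libraries in every value given. In neurons the rde-4 transcript stood at 1.97 to 3.83 CPM (counts scaled to library size) in the mutant, 9.02 to 26.6 in the wild type and 287 to 319 in pigSi3, and in gonads it stood at 21.9 to 40.9 in all 5 groups. sid-1 mRNA was 33.5 to 39.3 CPM in the gonad groups labelled sid-1 mutant and 46.8 to 90.4 in the others. Gonad mRNA libraries held oocyte markers at 20132 to 35612 CPM summed over 16 genes, with none at 0, and neuron mRNA libraries held neuron markers at 6533 to 36852 CPM summed over 12 genes, again with none at 0. The labels do not state whether replicates were grown separately. Each p-value thus reflects only how far libraries within groups differ, and that spread may be technical. For each gene the spread was estimated over all groups of a fit together, including groups outside a given comparison.

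Levels are given as scaled CPM, that is, CPM after edgeR's trimmed-mean (TMM) scaling over the libraries of 1 fit, so that a library can have slightly different values in different fits. They are not corrected for gene length, so they compare a gene between libraries, not 1 gene with another. The msp genes are near-identical copies, and no source used here says how the authors' counting shared reads between copies. A single msp value is therefore uncertain, and the sum over the family is the firmer quantity. Of the 31 msp genes placed by the RefSeq annotation, 28 have another of these genes within 10 protein-coding genes, against 6 of 12 ssp and 2 of 21 spe genes. It lists msp-37, msp-42, msp-52 and msp-71 as pseudogenes.

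Summed msp mRNA varied widely between replicate gonad libraries, most of all in pigSi3 and in both groups with the sid-1 mutation. In the rde-4 mutant it was 1698, 469 and 1783 CPM in replicates 1, 2 and 3, a mean of 1317 ± 735 (SD, n = 3). In pigSi3 it was 40.3, 585 and 1388 CPM (671 ± 678). In pigSi3 F3 it was 1923, 4098 and 1981 CPM (2667 ± 1239). The F3 libraries were the highest group, and its lowest library lay above every rde-4 and every pigSi3 library. In the sid-1 rde-4 double mutant the sum was 69.6, 30.3 and 572 CPM (224 ± 302), and with pigSi3 added it was 723, 2751 and 50.2 CPM (1175 ± 1406). The highest library held 135 times the msp mRNA of the lowest. Within groups the ratio of highest to lowest was 3.80 in rde-4, 34.5 in pigSi3, 2.13 in pigSi3 F3, 18.9 in sid-1 rde-4 and 54.8 in sid-1 rde-4 pigSi3. In such bulk tissue, fewer sperm and less sperm RNA per cell cannot be told apart.

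**Figure D1:**
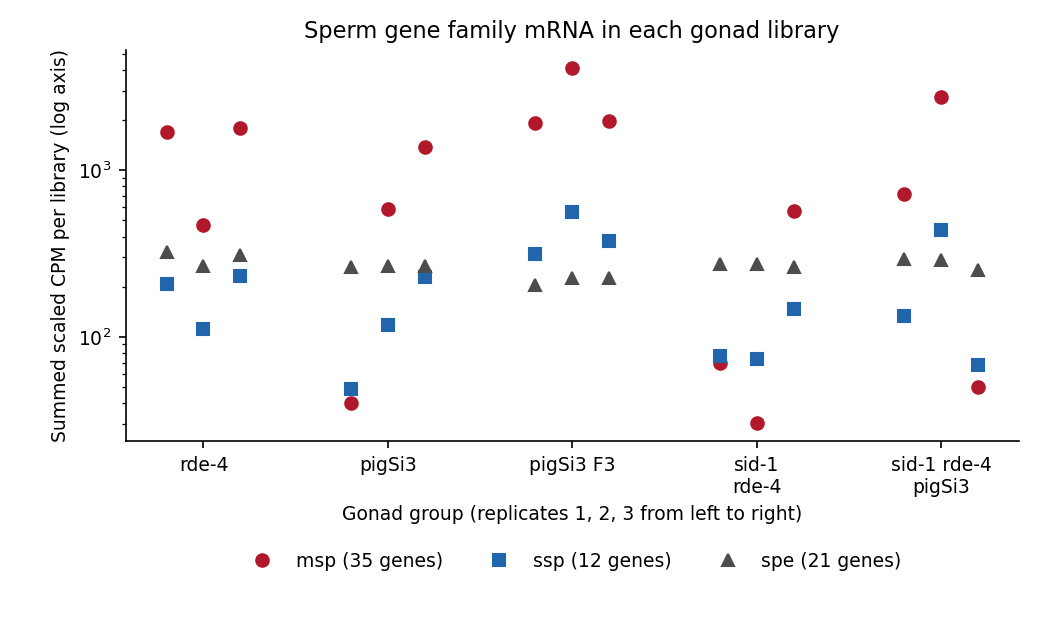
Summed scaled CPM (log axis) of the 35 msp, 12 ssp and 21 spe genes in each of the 15 gonad mRNA libraries, 3 per group, each point 1 library. The msp sums run from 30.3 to 4098 and spread within groups, while the spe sums stay between 204 and 322.

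The spe genes as a sum did not share this spread. Their summed mRNA lay between 204 and 322 CPM in all 15 libraries, and the ssp sum between 48.6 and 558 CPM. The steady spe total came from 6 genes: spe-39 (a regulator of vesicle trafficking), spe-5 (a subunit of the vacuolar proton pump), spe-44 (a SAND-domain transcription factor of spermatogenesis), spe-6 (a casein kinase), spe-15 (a myosin VI) and spe-41 (a TRP channel). Mean levels over the 15 libraries were 88.3 CPM for spe-39, 83.5 for spe-5, 38.3 for spe-44, 15.4 for spe-6, 14.7 for spe-15 and 8.26 for spe-41. The other 15 spe genes together reached 2.87 to 55.7 CPM, with the lowest sum in pigSi3 replicate 1 and the highest in sid-1 rde-4 pigSi3 replicate 2.

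The 12 genes of highest mean CPM were msp-19 (110 CPM), spe-39, msp-57 (86.8), spe-5, msp-59 (81.9), msp-65 (79.6), msp-53 (75.8), msp-152 (61.9), ssp-37 (61.3), msp-51 (59.0), msp-113 (57.1) and msp-55 (55.8). For msp-19 the 3 rde-4 libraries held 161, 43.5 and 176 CPM, pigSi3 4.24, 50.9 and 130, and pigSi3 F3 158, 383 and 157. The same gene held 7.34, 3.55 and 53.5 CPM in sid-1 rde-4 and 66.8, 255 and 3.24 in sid-1 rde-4 pigSi3. The libraries low for msp-19 were thus those low for the family as a whole. Among genes with a mean of at least 5 CPM and reads in every library, the largest ratios of highest to lowest library were 513 for ssp-11, 382 for msp-59, 291 for msp-3 and 271 for msp-10. By contrast spe-39 varied by 1.84 times, spe-44 by 1.84 times and spe-6 by 2.00 times. spe-15 varied by 3.73 times, spe-5 by 3.97 times and spe-41 by 5.63 times. msp-31 and msp-45 had no read in any gonad mRNA library, and 3 of the 68 genes had fewer than 10 reads over all 15.

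**Figure D2:**
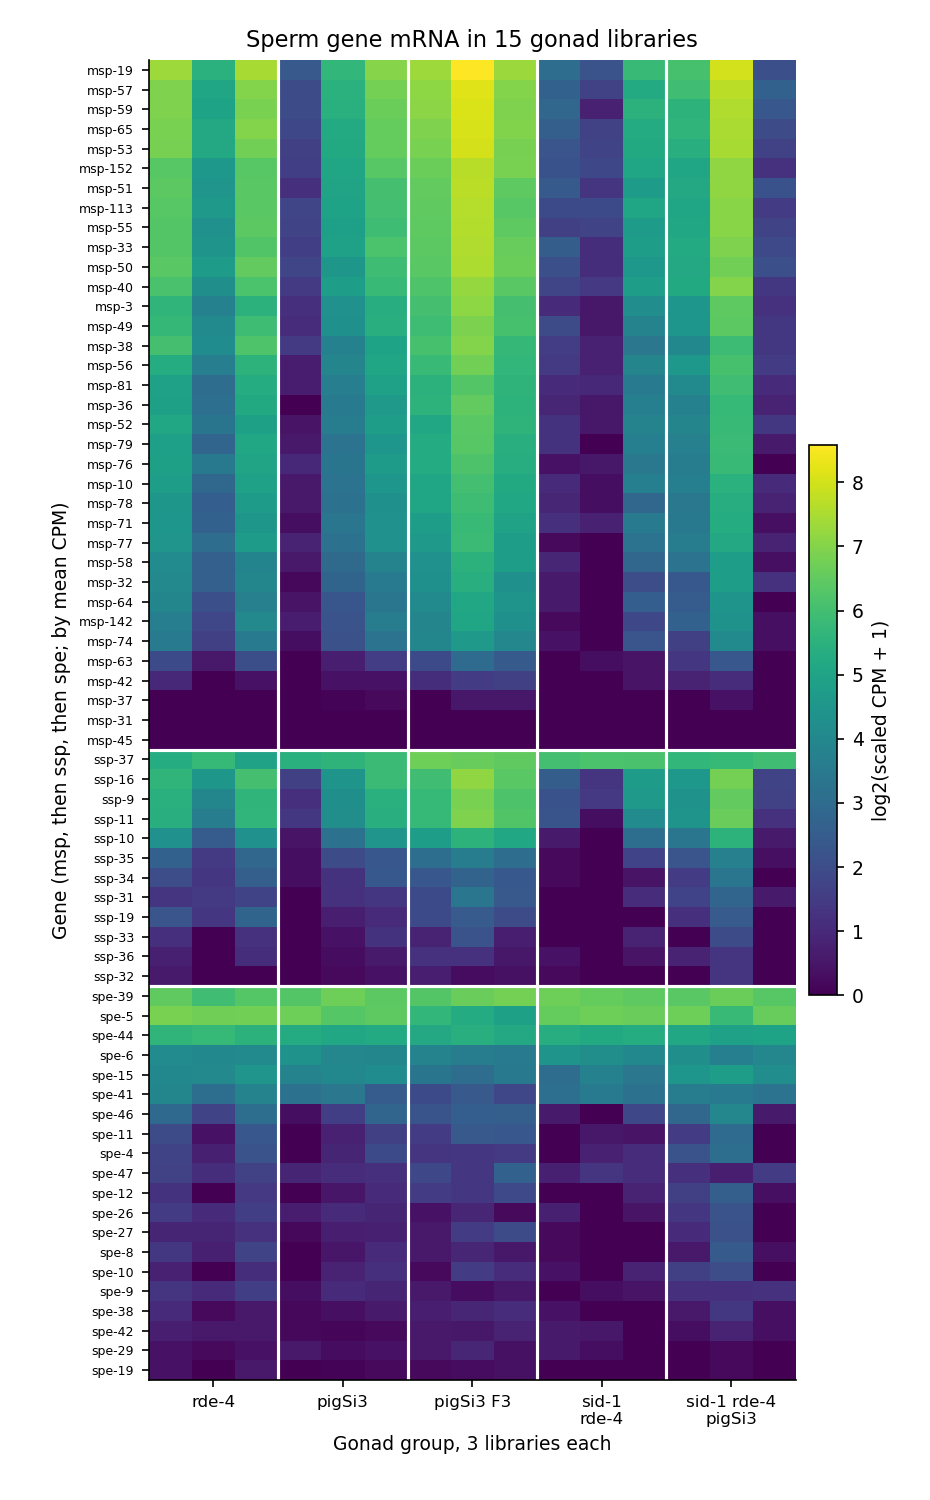
log2(scaled CPM + 1) of 67 of the 68 sperm genes (rows, grouped as msp, ssp and spe and ordered by mean CPM) in 15 gonad mRNA libraries (columns, replicates 1 to 3 within each group). Nearly all msp and most ssp genes are bright or dark in the same libraries. ssp-37, spe-39, spe-5, spe-44, spe-6, spe-15 and spe-41 vary less, from 1.84 times (spe-44) to 5.63 times (spe-41) between lowest and highest library.

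The likeness of each gene to the summed msp mRNA was measured as Pearson's r of log2(CPM + 1) over the 15 libraries, as a description, with the msp genes themselves part of that sum. Of the 68 genes, 54 passed the filter on low counts, and of these 39 had r of at least 0.9 and 35 of at least 0.95. The msp genes reached 0.999 for msp-65, and ssp-16 (0.994), ssp-9 (0.993), ssp-11 (0.990) and ssp-10 (0.990) ran with them. Among the spe genes, spe-46 had 0.93, spe-11 (a paternal-effect gene needed in the embryo) 0.87, spe-12 (spermatid activation) 0.82, spe-4 (a presenilin) 0.79, spe-27 (spermatid activation) 0.77 and spe-10 (a palmitoyltransferase) 0.73. The genes that did not follow were spe-47 (0.35), spe-44 (0.14), spe-39 (0.13), spe-15 (0.11), ssp-37 (0.10), spe-41 (-0.30), spe-5 (-0.53) and spe-6 (-0.70). Outside these families 228 of 10515 tested genes had r of at least 0.9 and 92 of at least 0.95. The 10 with the highest r were Y59E9AR.1 (0.996), B0261.6, Y59E9AR.7, gst-9, Y59H11AM.1, msd-2, ZK1307.4, Y38C1AA.7, Y4C6A.68 and C05C12.5 (0.987).

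Marker levels of sperm and of other cells also differed between these libraries. A list of 32 other sperm genes, including gsp-3 and gsp-4 (sperm phosphatases), summed to 74.0 to 1373 CPM and had between 1 and 9 genes at 0 in a library. The 4 libraries with msp sums under 100 CPM were pigSi3 replicate 1, sid-1 rde-4 replicates 1 and 2 and sid-1 rde-4 pigSi3 replicate 3. Their summed intestine markers, over 15 genes, were 11579, 4497, 6254 and 13787 CPM, and in the other 11 libraries they ran from 771 to 8294, so that both sid-1 rde-4 libraries lay within that range. The vitellogenins vit-1 to vit-6 (yolk proteins) made up much of that sum, and their r with the summed msp mRNA ran from -0.58 (vit-2) to -0.67 (vit-3). Of the other intestine genes tested, cpr-6 shared this (-0.59). The rest did not, and ran from -0.11 (act-5) to 0.42 (elt-7). The library with the most msp mRNA outside F3, sid-1 rde-4 pigSi3 replicate 2, also had the highest muscle marker sum (1313 CPM over 10 genes, against 193 to 683 elsewhere) and an oocyte marker sum of 23105 CPM, below the 28388 to 35612 of the other non-F3 libraries. Among muscle genes, r with the summed msp mRNA was 0.72 for myo-3, 0.70 for mup-2 and 0.60 for unc-22. The other muscle genes tested ran from -0.24 (unc-15) to 0.37 (tnt-2). The part of these other tissues in the sperm gene levels was not tested.

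The integrated neuronal transgene did not shift the gonad mRNA of these genes beyond the spread between libraries. Of the 54 genes tested in pigSi3 against rde-4, 0 passed an adjusted p of 0.05 in edgeR's quasi-likelihood test with Benjamini-Hochberg adjustment, 3 had an unadjusted p under 0.05 (spe-41, spe-44 and ssp-19), and DESeq2 called 0. Over all tested genes 0.483% passed. The median log2 fold change was -0.96 for the sperm genes and 0.01 for all genes, and all 31 msp genes were lower on average, by 0.71 to 1.82 on the log2 scale. For msp-19 the log2 fold change was -1.06 with a standard error (SE) of 1.25, larger than the change itself. The pigSi3 and rde-4 libraries overlapped for the msp sum.

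In the sid-1 mutant the averages stood the other way round, again without a call. In sid-1 rde-4 pigSi3 against sid-1 rde-4, edgeR called 0 of 54 (0.123% of all genes), 16 had an unadjusted p under 0.05, and DESeq2 called 2, spe-15 and ssp-19, both higher. The median log2 fold change was 2.65, or 2.63 with the 2 genes absent from the double mutant, ssp-19 among them, set at a floor of 3 counts per library. For spe-15 the double mutant held 7.34, 12.5 and 9.49 CPM and the transgene group 21.8, 27.4 and 17.5, a log2 fold change of 1.19 (SE 0.24, edgeR adjusted p = 0.119). The spe-15 groups did not overlap, and edgeR called it, as 1 gene in all, when sid-1 rde-4 pigSi3 replicate 3 was left out. ssp-19 was at 0 in all 3 double mutant libraries and at 1.28, 4.56 and 0 CPM with the transgene, at least 2.46-fold higher in the mean against the floor.

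The sid-1 rde-4 double mutant itself was compared with rde-4, and again edgeR called 0 of 54 genes while 0.388% of all genes passed. An unadjusted p under 0.05 was reached by 16, and DESeq2 called ssp-19 (lower) and ssp-37 (higher). The median log2 fold change was -2.72, or -2.67 with the floor, against 0.00 over all genes. ssp-19 held 3.85, 1.55 and 5.73 CPM in rde-4 and 0 in every double mutant library, at least 4.69-fold lower. ssp-37 held 39.04, 52.8 and 29.7 CPM in rde-4 and 63.97, 70.3 and 68.0 in the double mutant (log2 fold change 0.74, SE 0.18, edgeR adjusted p = 0.141). It was called, alone, when rde-4 replicate 2 was left out. The transgene effect in the sid-1 mutant less that with sid-1 intact was positive for all 31 msp genes, with a median of 3.66 log2 units against -0.02 over all genes. As a contrast in 1 model, edgeR called 0 of 54 genes for it (0.416% of all genes), 19 had an unadjusted p under 0.05, DESeq2 called spe-15 and ssp-19, and edgeR called those 2 without sid-1 rde-4 pigSi3 replicate 3. These comparisons share control libraries.

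The calls in gonad mRNA were in the F3 descendants, and they fell on genes that did not follow the msp sum. Against rde-4, pigSi3 F3 gonads had more ssp-37 and less spe-41, spe-5, spe-15 and spe-44, which makes 1 higher and 4 lower of 54 tested, where 28% of all tested genes passed. A count of 5 in 54 was below that background. ssp-37 held 102, 96.3 and 88.4 CPM in F3 (95.4 ± 6.62), above every rde-4 library, with a log2 fold change of 1.24 (SE 0.17, edgeR adjusted p = 0.000318). spe-5 held 50.4, 37.8 and 28.8 CPM in F3 against 114, 105 and 106 in rde-4, a log2 fold change of -1.47 (SE 0.22, edgeR adjusted p = 0.000458). spe-41 held 2.82, 4.30 and 2.54 CPM against 14.3, 7.57 and 13.3 (-1.89, SE 0.32, edgeR adjusted p = 0.000904). These 3 genes kept their calls under each setting tried and whichever library was left out.

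spe-15 held 9.13, 7.46 and 10.2 CPM in F3 and 15.0, 15.5 and 21.4 in rde-4 (log2 fold change -0.94, SE 0.23, edgeR adjusted p = 0.00832), and the call was lost without F3 replicate 2. spe-44 held 35.2, 40.9 and 35.6 CPM against 48.6, 53.0 and 45.03 (-0.39, SE 0.11, edgeR adjusted p = 0.0191), and it was lost in 5 of 6 fits that left out 1 library. Without F3 replicate 2 the count of called sperm genes was 3. Against pigSi3 carriers F3 gonads differed in 5 of 54 genes, where 32.1% of all genes passed: ssp-37 (0.98, SE 0.17) and spe-47 (1.58, SE 0.50) were higher, and spe-5 (-1.19, SE 0.22), spe-41 (-1.25, SE 0.32) and spe-15 (-0.75, SE 0.23) were lower. spe-47, an MSP-domain gene that keeps spermatids from activating early, held 2.65, 1.58 and 5.41 CPM in F3 and 0.872, 1.14 and 1.22 in pigSi3. Without pigSi3 replicate 2 the calls were 2, spe-5 and ssp-37. Both comparisons share the F3 libraries.

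The msp genes themselves gave no call in F3 although all 31 tested were higher on average. Against rde-4 their log2 fold changes ran from 0.65 to 1.33 with a median of 1.08, against 0.00 for all genes, and against pigSi3 from 1.83 to 2.56 with a median of 2.09, against 0.08. All 3 F3 libraries lay above all 3 rde-4 libraries for 22 of 31 msp, 6 of 9 ssp and 0 of 14 spe genes, where 22.9% of all tested genes showed this. Above all 3 pigSi3 libraries they lay for 31 of 31 msp, 8 of 9 ssp and 3 of 14 spe genes (spe-12 and spe-47 among them), against 24.5% of all genes. For msp-59 the F3 libraries held 134, 271 and 122 CPM and the rde-4 libraries 120, 30.4 and 116. The log2 fold change was 0.97 with an SE of 1.25, which rests on a spread shared by all gonad groups of the fit. The msp sum varied 2.13 times within F3 and 3.80 times within rde-4, but 18.9 to 54.8 times within the other groups. The lack of msp calls thus also reflects groups outside this comparison. The msp genes are high or low in the same libraries and are not independent observations.

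F3 gonads also differed in other lists of germ line genes. Early germline markers summed to 2335 to 2591 CPM over 14 genes in F3 and to 3996 to 5442 elsewhere, and oocyte markers to 20132 to 24726 in F3. Over all tested genes 14.4% were called lower than in rde-4. Of 18 regulators of sperm fate and meiosis, 7 were lower and 0 higher, among them fem-1 (-1.92, SE 0.20), which promotes the male germ cell fate, and fbf-1 (-1.94, SE 0.22) and fbf-2 (-1.91, SE 0.23), which promote the switch to oocytes. Of 13 genes listed with the ALG-3 and ALG-4 small RNA pathway 3 were lower, hrde-1 (-0.72, SE 0.14), csr-1 (-0.53, SE 0.16) and eri-5 (-0.47, SE 0.12). alg-4 and alg-3 themselves were not among them. Over the 15 libraries their r with the summed msp mRNA was 0.92 and 0.70, while the rest of that list ran from -0.45 (eri-5) to 0.19 (drh-3). Of 28 other sperm genes tested 1 changed, swm-1 (0.92, SE 0.21), a secreted inhibitor of sperm activation. With 28% of all genes called in either direction, the counts of 3 in 13 and 1 in 28 were under the background. Intestine markers summed to 771 to 2699 CPM in F3 and to 3864 to 13787 elsewhere. The part of these lists in the F3 sperm gene levels was not tested.

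In isolated neurons msp mRNA was low except in 2 of 4 wild-type libraries. The msp sum was 202, 29.4, 219 and 10.3 CPM in the wild type, 24.01, 13.1, 29.1 and 49.9 in rde-4, and 21.8, 10.6, 12.5 and 24.3 in pigSi3. Wild-type replicates 1 and 3, the high ones, also had the lowest sums of neuron markers (10974 and 6533 CPM over 12 genes, against 13534 to 36852 elsewhere) and the highest of intestine markers (1388 and 1837 CPM over 15 genes, against 269 to 992). The part of carried-over gonad or other tissue in these values was not tested. Of 68 genes 27 passed the filter on low counts. In the wild type against rde-4 edgeR called 0 of 27 (0.433% of all genes), 12 had an unadjusted p under 0.05, the median log2 fold change was 1.91 against 0.17 over all genes, and DESeq2 called msp-52, msp-53 and msp-113. edgeR called msp-19, msp-52 and msp-53 when wild-type replicate 4 was left out.

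In pigSi3 against rde-4 neurons edgeR called 0 of 27 genes (0.0236% of all genes). Only msp-55 had an unadjusted p under 0.05, DESeq2 called 0, and the median log2 fold change was -0.48. The spe gene of highest mean level in neurons was spe-15 at 40.6 to 102 CPM. spe-39 followed at 9.12 to 24.7, and spe-29 (spermatid activation) stood at 2.85 to 19.9. spe-15 held 52.4, 54.2, 40.6 and 68.0 CPM in the wild type, 57.7, 69.6, 67.7 and 47.9 in rde-4 and 78.5, 77.8, 68.0 and 102 in pigSi3. The pigSi3 libraries overlapped those of rde-4 for spe-15 (log2 fold change 0.43, SE 0.28, edgeR adjusted p = 0.683).

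Small RNAs against these genes were concentrated on 4 spe genes. Over 46 whole-animal libraries on 1 scale, mean levels were 118 CPM for spe-41, 72.1 for spe-39, 59.1 for spe-15 and 16.9 for spe-6, followed by spe-9 (an EGF-repeat protein on sperm needed for fertilization) at 3.58, msp-50 at 3.26, msp-40 at 2.72, msp-33 at 2.56, msp-36 at 2.07 and msp-57 at 2.06. The first 4 held 58.0 to 96.96% of all small RNA counts on the sperm genes, with a median of 86.1%. Of the 64 genes 39 had a mean under 1 CPM. These 4 were also among the spe genes whose gonad mRNA did not follow the msp genes. spe-41 ranged from 61.6 to 404 CPM, spe-39 from 50.5 to 90.3, spe-15 from 32.9 to 99.8 and spe-6 from 4.36 to 94.7. The summed msp small RNA ran from 5.30 to 118.7 CPM, spread over 35 genes, so a single msp gene rests on few reads. Before TMM scaling 3 counts were worth 0.112 to 0.175 CPM in the rde-4 and N2 libraries compared at 20 °C.

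At 20 °C, 8 of 23 msp genes tested had fewer small RNAs in whole-animal N2 than in the rde-4 mutant, and 0 had more. Of 64 genes 38 passed the filter, and of these 12 were lower and 0 higher, where 31.4% of all tested genes passed. The count of 12 in 38 was near that background, while 16.9% of all genes were called lower. The median log2 fold change was -0.82, against 0.00 over all genes. The 12 were msp-33, msp-36, msp-50, msp-53, msp-55, msp-64, msp-65 and msp-78, with spe-15, spe-26 (a kelch-repeat actin-associated protein), spe-42 (a sperm membrane protein of fertilization) and ssp-32. msp-65 held 0.506, 0.109 and 0.615 CPM in N2 and 2.72, 1.66 and 2.78 in rde-4, a log2 fold change of -2.53 (SE 0.42, edgeR adjusted p = 0.00149). msp-50 held 1.84, 1.31 and 2.29 CPM against 3.62, 4.66 and 6.60 (-1.46, SE 0.34, edgeR adjusted p = 0.00864). msp-64 held 0.230, 0.163 and 0.391 CPM against 0.891, 0.998 and 1.70 (-2.21, SE 0.40, edgeR adjusted p = 0.00223). The groups did not overlap for any of the 12, and N2 replicate 2 was the lowest library for most.

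spe-15 alone of these 12 was abundant, at 47.7, 43.1 and 32.9 CPM in N2 and 53.6, 54.2 and 50.8 in rde-4, and its difference was small (log2 fold change -0.36, SE 0.12, edgeR adjusted p = 0.049). It was lost in 5 of 6 fits that left out 1 library. spe-41 at 99.2, 66.1 and 79.0 CPM in N2 and 115, 96.3 and 88.3 in rde-4 and spe-6 at 9.30, 10.8 and 4.36 against 9.86, 8.09 and 9.13 overlapped between the groups. Without N2 replicate 2 the calls were 5 lower and 1 higher (ssp-34), and without rde-4 replicate 3 they were 6 lower. With library totals in place of TMM the median of all genes moved to -0.25 log2 units and 16 sperm genes were lower, among them all 12. With the replicate number as a block, which pairs these libraries, 15 genes were lower and 1, spe-39, higher. The share of all genes called under these alternative settings is not given here, so their counts are not set against a background.

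pigSi3 carriers did not separate from rde-4 at the sperm genes. On the scale of all 46 libraries the summed msp small RNA was 33.0, 24.4 and 40.3 CPM in pigSi3 and 31.3, 30.3 and 49.1 in the 3 rde-4 libraries of the same set of records, with 18.98, 9.16 and 28.6 in N2. edgeR called 0 of 38 genes (5.86% of all genes), 2 had an unadjusted p under 0.05, DESeq2 called 0, and the median log2 fold change was -0.17 against 0.02 over all genes. With the replicate block 1 gene, msp-55, was lower.

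At 25 °C 8 sperm genes had fewer small RNAs in N2 than in rde-4 and 0 had more, of 37 tested. Over all genes 24.8% passed and 13% were called lower, so the count of 8 in 37 was under the background for calls in either direction. Over the 37 genes the median log2 fold change was -1.18, against 0.01 over all genes. The 8 were msp-3, msp-57, msp-142, spe-4, spe-8 (a tyrosine kinase of spermatid activation), spe-9, ssp-32 and ssp-36. ssp-32 held 0.370, 0 and 0.264 CPM in N2 and 3.79, 3.84 and 1.44 in rde-4, a log2 fold change of -3.78 (SE 0.68, edgeR adjusted p = 0.00172). msp-142 held 0.370, 0 and 0.176 CPM against 3.50, 1.56 and 1.15 (-3.31, SE 0.76, edgeR adjusted p = 0.00709). Before TMM scaling 3 counts were worth 0.215 to 0.258 CPM in these N2 libraries, which compares only roughly with the scaled values. The N2 values of ssp-32 and msp-142 thus rest on few reads or none, and the size of both fold changes is uncertain. spe-9 held 2.03, 1.12 and 1.14 CPM against 8.74, 4.89 and 2.73 (-1.86, SE 0.49, edgeR adjusted p = 0.0157). Every one of the 8 was higher in all 3 rde-4 libraries than in any N2 library.

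The 25 °C calls depended on single libraries. Their number was 13 without N2 replicate 1, 2 without N2 replicate 2, 4 without N2 replicate 3, 5 without rde-4 replicate 1, 5 without rde-4 replicate 2 and 11 without rde-4 replicate 3, and msp-142 and ssp-32 were called in every one of these fits. Of 35 genes tested at both temperatures, 26 had a negative log2 fold change at both and 1 a positive one at both, and ssp-32 was the 1 gene called at both. How often all tested genes share a sign at both temperatures was not counted, so the 26 have no background here. The N2 difference at 25 °C less that at 20 °C, tested as a contrast, gave 0 calls in edgeR among 37 genes (2.13% of all genes), 4 at an unadjusted p under 0.05 (msp-53, msp-57, msp-142 and spe-15) and 0 in DESeq2. A difference between temperatures in the effect of rde-4 was thus not shown for any sperm gene.

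**Figure D3:**
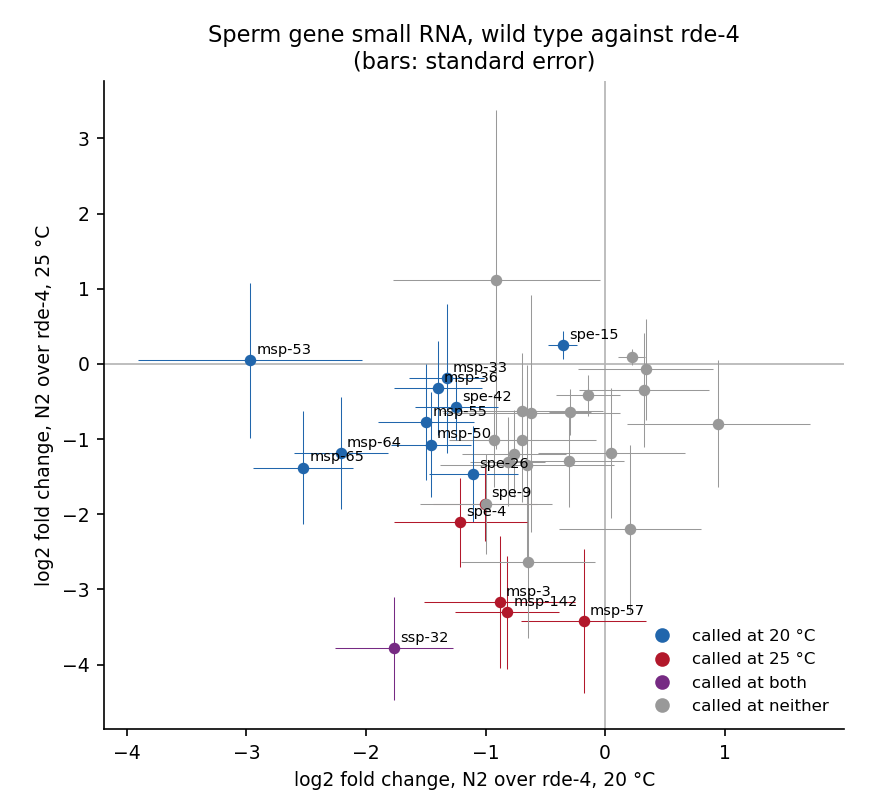
log2 fold change of small RNA counts in N2 over rde-4 at 20 °C (horizontal) and 25 °C (vertical) for the 35 sperm genes tested at both, each point 1 gene with its standard error, coloured by where edgeR called it. Most points, 26 of 35, lie below 0 on both axes, a share not counted over all genes, and ssp-32 is the only gene called at both.

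Growth at 25 °C went with more small RNA on spe-6 and spe-41 in both genotypes. On the scale of these 12 libraries, rde-4 libraries held 8.40, 6.90 and 7.66 CPM at 20 °C and 80.7, 64.04 and 57.3 at 25 °C, and N2 libraries 7.92, 9.16 and 3.64 at 20 °C and 48.3, 62.9 and 39.1 at 25 °C. Every 25 °C library lay above every 20 °C library. The log2 fold change was 3.13 (SE 0.30, edgeR adjusted p = 6.79e-06) in rde-4 and 2.86 (SE 0.29, edgeR adjusted p = 1.8e-05) in N2, and the calls held in every fit tried. spe-41 held 98.2, 82.1 and 74.1 CPM at 20 °C and 344, 226 and 123 at 25 °C in rde-4 (1.44, SE 0.31, edgeR adjusted p = 0.00252). In N2 it held 84.5, 55.9 and 65.9 CPM at 20 °C and 187, 127 and 128 at 25 °C (1.10, SE 0.31, edgeR adjusted p = 0.0145), a call lost without N2 replicates 2 or 3 at 20 °C or replicate 1 at 25 °C. spe-39 stayed between 53.3 and 73.0 CPM in all 12 libraries.

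**Figure D4:**
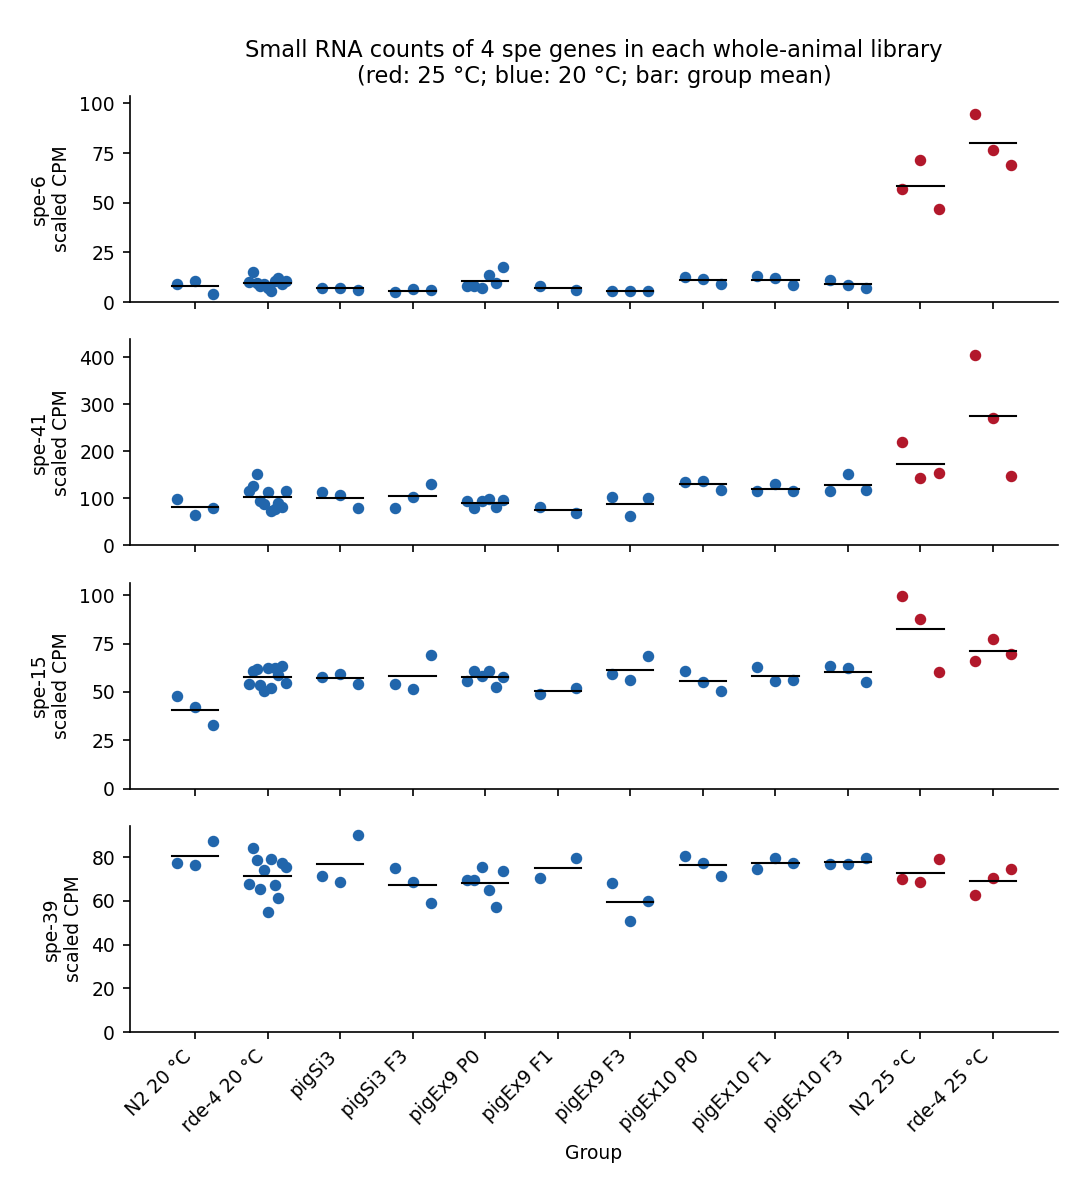
Scaled CPM of small RNAs on spe-6, spe-41, spe-15 and spe-39 in each whole-animal library, by group, on the scale of all 46 libraries, with a bar at the group mean (red 25 °C, blue 20 °C). For spe-6 the 25 °C libraries lie between 46.9 and 94.7 CPM and the 20 °C libraries between 4.36 and 17.9.

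In rde-4, 7 of 37 tested genes were higher at 25 °C and 2 lower, where 45.6% of all genes passed, so the count was under the background. The higher genes were spe-4, spe-6, spe-8, spe-9, spe-41, ssp-32 and ssp-36, and all but spe-9 had groups that did not overlap. The lower ones were msp-33 (-2.54, SE 0.78) and msp-50 (-1.86, SE 0.57). In N2, 4 were higher (spe-6, spe-8, spe-15 and spe-41) and 1 lower (msp-57, -3.41, SE 0.90), where 37.6% passed, and this count too was under the background. spe-15 in N2 went from 40.7, 36.5 and 27.4 CPM to 84.5, 77.5 and 50.4 (1.02, SE 0.19, edgeR adjusted p = 0.000949). spe-8 in N2 was at most 0.118 CPM at 20 °C, at or under the floor of 3 counts. Its call was lost without any 1 of the 6 libraries. It was also lost with the replicate number as a block (edgeR adjusted p = 0.0612), which left 4 calls in N2. Without N2 replicate 3 at 20 °C the N2 calls were 3. By family the median log2 fold change in rde-4 was 1.39 for spe, 1.35 for ssp and -0.04 for msp, and in N2 1.02, 0.43 and -0.69, against 0.01 and -0.02 over all genes. Of 14 other sperm genes tested, 5 were higher in rde-4 at 25 °C and 1 in N2.

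The split between higher and lower calls depended on scaling. With library totals the median of all genes moved to -0.44 log2 units in rde-4 and -0.34 in N2, and the calls became 5 higher and 6 lower in rde-4 and 3 higher and 5 lower in N2. spe-6 and spe-41 were higher under both scalings in both genotypes. The 25 °C libraries form a set of records of their own, which cannot be told apart from temperature.

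Summed msp small RNA also differed between sets of records within 1 genotype. The 11 rde-4 libraries at 20 °C fall in 4 such sets. The labels do not name them, and the order of the deposited records was used to infer them. Their msp sums were 31.3, 30.3 and 49.1 CPM in the first, 49.5 and 58.8 in the second, 11.2, 13.3 and 14.8 in the third and 22.6, 28.7 and 26.1 in the fourth. Carriers and descendants were therefore compared with rde-4 libraries of their own set, where there were any.

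**Figure D5:**
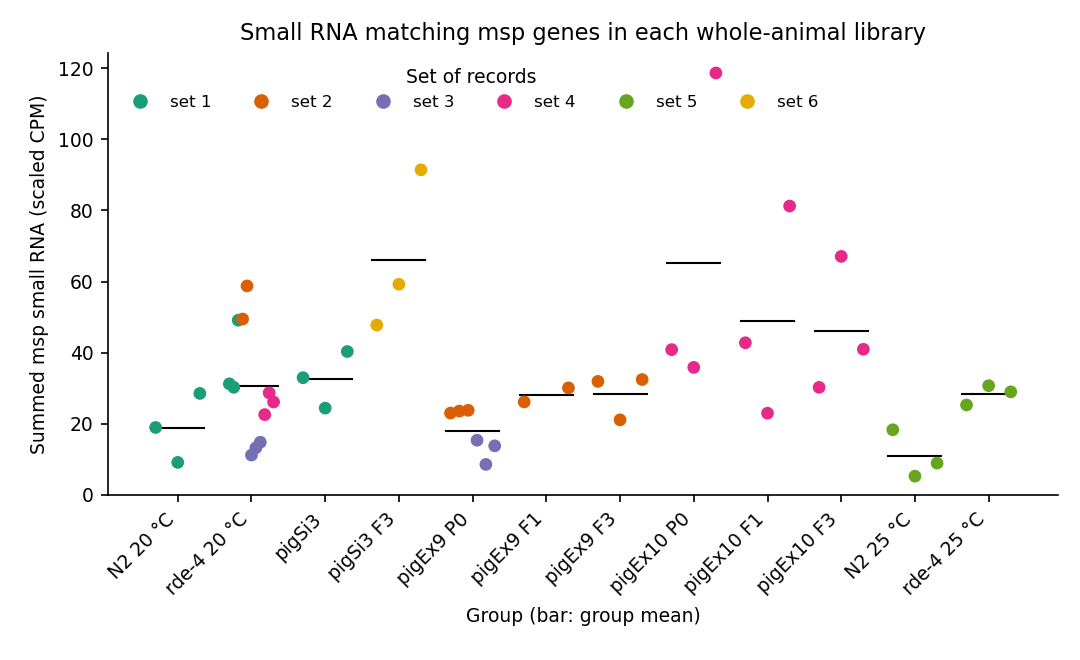
Summed scaled CPM of small RNAs on the 35 msp genes in each whole-animal library by group, with a bar at the group mean and colours for the 6 sets of records. The rde-4 libraries at 20 °C run from 11.2 to 58.8, and the highest library is pigEx10 P0 replicate 3 at 118.7.

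pigEx9 carriers (P0) had msp sums of 23.0, 23.6 and 23.8 CPM beside rde-4 at 49.5 and 58.8 in the second set, and 15.4, 8.60 and 13.8 beside 11.2, 13.3 and 14.8 in the third. With the set as a term edgeR called 2 of 23 genes, both lower, where 6.15% of all genes passed: msp-57 (log2 fold change -1.62, SE 0.46, adjusted p = 0.0457) and ssp-34 (-2.01, SE 0.47, adjusted p = 0.0153). In the second set msp-57 held 1.23, 0.940 and 1.06 CPM in carriers and 3.68 and 5.53 in rde-4. In the third set it held 1.01, 0.458 and 1.01 against 1.29, 1.06 and 1.81. ssp-34 held 1.18, 0.269 and 0.663 CPM against 3.68 and 3.42 in the second set, and 0.203, 0.458 and 0.503 against 0.518, 0.531 and 0.906 in the third. Carriers lay below rde-4 within each set, and the groups overlapped over both. In the third set 3 counts were worth 0.526 to 1.17 CPM before TMM scaling, so the separation there rests on few reads.

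These 2 calls were fragile. There were 0 with all 11 rde-4 libraries, 0 without P0 replicate 3 and without rde-4 replicates 4 or 5, and 1, ssp-34, without P0 replicates 1, 2 or 5 or rde-4 replicate 6. There were 4 without P0 replicate 4 or without rde-4 replicate 8. In the array-free descendants the msp sums were 26.2 and 30.1 CPM in F1 and 31.9, 21.1 and 32.5 in F3. The library at 21.1 CPM, F3 replicate 2, held only 918317 gene counts, and 3 counts were worth 3.27 CPM in it before TMM scaling. edgeR called 0 of 23 genes in F1 (0.108% of all genes; 6 at an unadjusted p under 0.05, DESeq2 0) and 0 in F3 (0.027%; 5, DESeq2 0). The median log2 fold changes were -0.76 in P0, -0.47 in F1 and -0.45 in F3, against 0.00, -0.01 and -0.01 over all genes. F1 and F3 were compared with the same rde-4 libraries as P0, and whether the generations differ was not tested.

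pigEx10 families had the higher msp sums, in P0 40.9, 35.9 and 118.7 CPM, in F1 42.8, 23.0 and 81.2 and in F3 30.3, 67.1 and 40.97, beside rde-4 at 22.6, 28.7 and 26.1 in the same set. All P0 and F3 libraries and 2 of 3 F1 libraries lay above the 3 rde-4 libraries. edgeR called 0 of 33 genes in P0 (1.8% of all genes; 6 at an unadjusted p under 0.05, DESeq2 1, msp-33), 0 in F1 (0.355%; 2, DESeq2 0) and 0 in F3 (0.355%; 2, DESeq2 0). With all 11 rde-4 libraries it called msp-33 and msp-79 in P0. msp-33 averaged 7.04 ± 4.29 CPM in P0, 6.25 ± 3.62 in F1 and 5.18 ± 0.499 in F3 against 1.88 ± 0.919 in rde-4 (SD, n = 3 each), with log2 fold changes of 1.82 (SE 0.54, edgeR adjusted p = 0.166), 1.69 (SE 0.54, adjusted p = 0.433) and 1.41 (SE 0.55, adjusted p = 0.659). The medians over the sperm genes were 1.21, 0.71 and 0.62, against 0.00 over all genes in each. All 14 other sperm genes tested were also higher on average in P0 and F1.

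pigSi3 F3 whole animals form a set with no rde-4 library, so this comparison with all 11 rde-4 libraries cannot be told apart from the set. Their msp sums were 47.8, 59.3 and 91.4 CPM, against 11.2 to 58.8 in rde-4 (median 28.7), and their ssp sums 13.1, 17.9 and 22.9 against 1.70 to 15.9. edgeR called 0 of 31 genes (0.0172% of all genes), but 20 had an unadjusted p under 0.05 and the median log2 fold change was 1.26 against -0.02 over all genes. DESeq2 called msp-56 and ssp-10 (higher) and spe-6 (lower). ssp-10 averaged 1.78 ± 0.513 CPM (n = 3) against 0.489 ± 0.438 (n = 11), a log2 fold change of 1.92 (SE 0.47, edgeR adjusted p = 0.158), and the groups did not overlap. spe-6 averaged 5.998 ± 0.815 CPM against 10.4 ± 2.68 (-0.79, SE 0.24, edgeR adjusted p = 0.221).

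In gonad small RNA the same 4 spe genes led, at 63.6 to 136 CPM for spe-41, 51.5 to 86.3 for spe-39, 49.2 to 64.02 for spe-15 and 5.39 to 23.9 for spe-6 over 11 libraries. Summed msp small RNA was 20.0, 25.4 and 28.9 CPM in rde-4, 4.70 and 10.6 in pigSi3, 18.6 and 16.2 in pigSi3 F3, 6.19 and 12.9 in sid-1 rde-4, and 17.9 and 4.09 in sid-1 rde-4 pigSi3. Every library of the other groups, with or without the transgene or the sid-1 mutation, lay below all 3 rde-4 libraries. Of 22 genes tested, pigSi3 against rde-4 had 1 call, msp-50, lower, where 1.98% of all genes passed. msp-50 held 0.662 and 0.904 CPM in pigSi3 and 3.64, 3.71 and 2.79 in rde-4, a log2 fold change of -2.08 (SE 0.45, edgeR adjusted p = 0.0496). The call was lost in each of the 5 fits that left out 1 library. The median log2 fold change was -2.003 over the 22 genes, against -0.01 over all genes.

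The other gonad small RNA comparisons gave no call among these 22 genes. For pigSi3 F3 against rde-4 edgeR called 0 (0.165% of all genes; 2 at an unadjusted p under 0.05, DESeq2 0), with a median of -0.66. Without F3 replicate 1, a library of 1841973 counts, it called spe-39, lower. For sid-1 rde-4 pigSi3 against sid-1 rde-4 it called 0 (0.573%; 0 at an unadjusted p under 0.05, DESeq2 0), with a median of -0.11. For sid-1 rde-4 against rde-4 it called 0 (3.31%; 6 at an unadjusted p under 0.05, DESeq2 0), with a median of -1.29. spe-39 held 68.2, 73.7 and 70.9 CPM in rde-4, 79.2 and 76.2 in pigSi3, 78.9 and 51.5 in pigSi3 F3, 86.3 and 74.2 in sid-1 rde-4 and 66.6 and 80.6 in sid-1 rde-4 pigSi3.

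Neuron small RNA libraries were the shallowest, and 3 counts were worth 1.19 to 4.08 CPM in them before TMM scaling. 30 of the 64 genes had no read in any of the 6 libraries, and only spe-6, spe-15, spe-39 and spe-41 passed the filter on low counts. spe-6 held 9.61 and 4.88 CPM in the wild type, 15.0 and 21.9 in rde-4 and 15.2 and 10.3 in pigSi3. In the wild type against rde-4 edgeR called 0 of 4 (3.34% of all genes). spe-6 had an unadjusted p under 0.05 (log2 fold change -1.26, SE 0.49, adjusted p = 0.220), and DESeq2 called 0. In pigSi3 against rde-4 edgeR called 0 of 4 (0.955% of all genes), 0 had an unadjusted p under 0.05, and DESeq2 called 0. Differences in small RNA on msp genes were not detectable in neurons at this depth.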

How the data were processed

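The deposited files are whole-number read counts per gene, made by the authors, 1 table per library. Per the labels' protocols, RNA came from TRIZOL lysates, NEBNext or TruSeq kits served for small RNA libraries and Nextera XT for mRNA. Per the submitters' processing notes cutadapt, FastQC, HTSeq and DESeq2 were used, on ce10. The sources used here give no aligner, annotation or strand setting, so reads of overlapping or antisense genes could not be separated. Lines for reads in no gene (47.5 to 54.2% in mRNA, 17.3 to 71.4% in small RNA) were left out of totals and tests. RefSeq gene tables, of another assembly, served only for names and neighbours.

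The sperm genes and all other lists were chosen with earlier results of these data known. Counts were tested over all genes of a fit with edgeR 4.0.16 in R 4.3.3 (TMM, filterByExpr, robust quasi-likelihood test, Benjamini-Hochberg threshold 0.05). DESeq2 1.42.0, library totals, no filter, a replicate block and leaving out each library were alternatives. Groups sharing a tissue or set of records were fitted together, with the set as a term for pigEx9. Libraries under 10000 gene counts (1) were left out. The floor of 3 counts in each library covers only counting error, since reads carry no molecular identifiers. The tests were checked on simulated counts with the same small spread for every gene and changes only in well-counted genes. That check does not cover genes as variable as msp mRNA in gonads or as sparse as msp small RNAs. Genes called are named, as are the 12 highest by mean and 4 widest in gonad mRNA, the 10 highest in whole-animal small RNA, and a fixed set with known roles. Values of 1 gene are not reported here by name.

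Replicate numbers are shared between groups. Deviations of same-numbered libraries from their group means correlated at 0.17 to 0.45 in all 9 pairs of N2, rde-4 and pigSi3 at 20 °C, and at 0.405 to 0.473 in the 3 pairs of N2 at 20 and 25 °C, so those numbers were taken to pair the libraries, from the data and not the labels.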

Additional observations from a re-analysis of the deposited data

How the results depend on the processing

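Of 47 calls on sperm genes, 19 held in every alternative, and over 486 combinations of a call with an alternative setting 375 calls were kept, 111 lost and 0 reversed. DESeq2 gave 2 calls in place of 0 for sid-1 rde-4 pigSi3, for sid-1 rde-4 and for the transgene by sid-1 contrast in gonad mRNA, 3 for wild-type neurons, 1 for pigEx10 P0, 3 for whole-animal pigSi3 F3 and 2 in place of 1 for gonad small RNA in pigSi3. Library totals gave 8 calls in place of 5 for N2 at 25 °C against 20 °C and 4 in place of 2 for pigEx9 P0. No filter gave 6 for pigEx9 P0 and 3 for gonad small RNA in pigSi3. All 11 rde-4 libraries gave 0 for pigEx9 P0 and 2 for pigEx10 P0. With library totals the median log2 fold change of all genes became 0.19 for gonad F3 mRNA against rde-4, 0.30 against pigSi3, 0.49 and 0.16 for wild-type and pigSi3 neuron mRNA, -0.10 for N2 at 25 °C and -0.18 for F3 gonad small RNA. Including pigEx9 F1 replicate 3 gave 3 for pigEx9 P0.

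The replicate block gave 1 call in place of 0 for pigSi3 whole animals, 16 in place of 12 for N2 at 20 °C, 5 in place of 0 for whole-animal pigSi3 F3 and 0 in place of 1 for gonad small RNA in pigSi3 (msp-50, adjusted p = 0.133). For N2 at 25 °C against 20 °C, where the numbers also pair the libraries, it gave 4 in place of 5. Elsewhere the numbers did not pair all libraries compared: correlations over 0.1 were found in 9 of 30 pairs in gonad mRNA, 6 of 20 in gonad small RNA, 2 of 12 in neuron mRNA, 2 of 6 in neuron small RNA, 0 of 3 for pigSi3 F3 and 13 of 18 in the temperature fit, where the block gave 13 calls in place of 9 in rde-4. For pigEx9 and pigEx10 alone, no paired analysis was possible because their groups share too few replicate numbers with the rde-4 libraries of their sets.

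Leaving out 1 library gave 3 to 5 calls for gonad F3 against rde-4, 2 to 5 against pigSi3, 0 to 1 for each sid-1 comparison in gonad mRNA, 0 to 2 for their contrast, 0 to 3 for wild-type neurons, 6 to 11 for N2 at 20 °C, 2 to 13 at 25 °C, 7 to 10 for temperature in rde-4 and 3 to 5 in N2, 0 to 4 for pigEx9 P0, 0 for pigSi3 and 0 to 1 for F3 in gonad small RNA. Why these counts moved was not tested, and the share of all genes called under each alternative is not given beside them. For most msp genes in small RNA the levels are near the floor of 3 counts, which limits what these libraries can show.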
